A study of Rattus norvegicus with 8 samples.

Results

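Liver RNA was examined for 10 genes that mark T cells and natural killer (NK) cells: Cd3d, Cd3e, Cd3g, Cd4, Cd8a, Cd8b, Lck, Cd5, Cd2 and Prf1. They were taken as a list of symbols, chosen with earlier results of these data known. The symbols were found on the array through the RefSeq accession of each probe. Each of the 10 genes had 1 probe, of 13031 gene symbols that the array's probes could be given. Gene expression was measured on 8 one-colour Agilent arrays, 1 per liver sample, from male Wistar/ST rats. For 5 weeks every animal received high-fat food together with drinking water rich in fructose. The 4 control samples came from rats without further treatment, and the 4 Eucommia samples from rats that drank a leaf extract of Eucommia ulmoides, a tree whose leaves are brewed as tea; the dose and the rats' age are not given in the sources used here. The comparison asks which of these genes differ in level between the livers of treated and control rats. Nothing in the labels beyond the sample numbers says that each array is a different rat, so a p-value here reflects only how far these samples spread.

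T cells recognise antigen through a receptor whose signal is carried into the cell by the CD3 chains, which Cd3d, Cd3e and Cd3g encode. The coreceptors CD4 and CD8 hold on to histocompatibility molecules and bring the kinase Lck to the receptor, and cytotoxic T cells and NK cells kill their targets with perforin, the product of Prf1. The liver holds many resident T and NK cells beside its hepatocytes and Kupffer cells, and in the rat CD4 is also carried by macrophages.

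The CD3 genes lie next to each other on chromosome 8 in the RefSeq annotation, Cd3g and Cd3d on opposite strands, and Lck has a pair of annotated starts. Their promoters are shown because Cd3d and Lck were among the genes that rose while Cd3g and Cd3e, the neighbours of Cd3d, did not pass the test. Each sequence runs from 250 bases before to 50 bases after the annotated start (RefSeq, build GRCr8, 300 bases), written 5′ to 3′ on the gene's own strand. Capitals mark matches, on either strand, to the core letters of 4 transcription factor families of T cells: GGAAGT for Ets, TGTGGT for Runx, CTTTGA for Tcf/Lef and AGATAA for Gata.
Cd3d (chr8:54185269-54185568, plus strand): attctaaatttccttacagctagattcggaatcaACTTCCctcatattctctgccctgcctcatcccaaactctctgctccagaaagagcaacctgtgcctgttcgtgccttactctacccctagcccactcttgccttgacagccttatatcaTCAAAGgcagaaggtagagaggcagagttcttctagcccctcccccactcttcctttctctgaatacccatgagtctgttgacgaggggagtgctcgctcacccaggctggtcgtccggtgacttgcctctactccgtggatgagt
Cd3g (chr8:54183869-54184168, minus strand): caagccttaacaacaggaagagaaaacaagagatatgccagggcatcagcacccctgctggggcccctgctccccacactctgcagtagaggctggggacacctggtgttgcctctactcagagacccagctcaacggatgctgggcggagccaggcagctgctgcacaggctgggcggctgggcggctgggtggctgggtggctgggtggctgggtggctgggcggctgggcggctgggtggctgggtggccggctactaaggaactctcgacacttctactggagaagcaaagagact
Cd3e (chr8:54211721-54212020, minus strand): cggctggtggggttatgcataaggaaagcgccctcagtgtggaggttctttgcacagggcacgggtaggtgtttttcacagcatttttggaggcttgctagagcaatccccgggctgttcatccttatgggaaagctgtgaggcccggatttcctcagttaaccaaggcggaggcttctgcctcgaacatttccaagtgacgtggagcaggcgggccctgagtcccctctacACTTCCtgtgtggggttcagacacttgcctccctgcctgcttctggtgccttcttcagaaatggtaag
Lck, start 1 (chr5:147201218-147201517, minus strand): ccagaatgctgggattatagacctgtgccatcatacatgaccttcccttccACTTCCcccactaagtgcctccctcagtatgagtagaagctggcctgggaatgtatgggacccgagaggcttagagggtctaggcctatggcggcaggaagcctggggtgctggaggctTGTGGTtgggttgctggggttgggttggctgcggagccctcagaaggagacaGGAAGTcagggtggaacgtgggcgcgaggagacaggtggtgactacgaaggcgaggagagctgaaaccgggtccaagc
Lck, start 2 (chr5:147183601-147183900, minus strand): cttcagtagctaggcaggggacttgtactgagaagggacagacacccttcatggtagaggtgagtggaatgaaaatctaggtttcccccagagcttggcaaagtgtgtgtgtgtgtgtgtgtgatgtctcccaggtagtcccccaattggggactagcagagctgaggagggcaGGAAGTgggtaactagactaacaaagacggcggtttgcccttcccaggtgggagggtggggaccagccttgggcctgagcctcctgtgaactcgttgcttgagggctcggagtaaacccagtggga

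In these windows Cd3d had 1 Ets match and 1 Tcf/Lef match, Cd3e had 1 Ets match, and Cd3g held none of the letters searched. Lck had 2 Ets matches and 1 Runx match at the start listed first and 1 Ets match at the other. Of the 10 genes, 8 were matched to a promoter sequence. The Ets letters occurred in 5 of these 8 genes (Lck, Cd3d, Cd3e, Cd5 and Prf1), the Runx letters in 3 (Lck, Cd2 and Prf1), the Tcf/Lef letters in 1 and the Gata letters in 0. No matches overlapped in the promoters of these genes, the longest run of capitals being 6 bases. Among all 33469 promoters of the same length, 22.6% held the Ets letters, 17.3% the Runx, 16.1% the Tcf/Lef and 11.6% the Gata letters. Both called and uncalled genes carried matches: the Ets letters stood before Lck and Cd3d, and equally before Cd3e, Cd5 and Prf1.

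The values are log2 processed signals minus the 75th percentile of all signals on the same array, so that 0 is the signal of a fairly bright probe. A spot is called well above background by the scanner software's own flag. On the control arrays 58.9% to 61.5% of spots carried that flag, and on the Eucommia arrays 69.3% to 71.9%. The lowest signal with the flag was 12.7 ± 1.05 raw units on control arrays and 5.90 ± 0.15 on Eucommia arrays (SD, n = 4), so dim probes received the flag at lower signals in the Eucommia group. The control arrays shared a slide and the Eucommia arrays another, and the slide and the treatment cannot be told apart in any value given here. All 10 hepatocyte markers measured, Alb and Apoa1 among them, were well above background on every array. In bulk liver, fewer cells of a type and less RNA per cell cannot be told apart.

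Of the 10 genes, 6 (Lck, Cd8a, Cd8b, Cd3d, Cd3g and Prf1) were well above background on all 8 arrays, 3 (Cd3e, Cd4 and Cd5) on some of them, and Cd2 on none. The test across all features, limma's linear model with Benjamini-Hochberg adjustment over 25128 features at a threshold of 0.05, covered the 8 genes that were well above background on at least 4 arrays. Cd8b, Lck and Cd3d were higher in the Eucommia group, 0 of the 8 were lower and 5 did not pass. At an unadjusted p under 0.05 the counts were the same, 3 higher and 0 lower. The shares of all features at an unadjusted p, or below 0, were not computed, here or for the lists below. After adjustment 18.4% of all features were higher and 6.17% lower, and the 3 of 8 is to be read against that share. The groups did not overlap for the same 3 genes, with Eucommia higher, and for 0 genes with Eucommia lower; over all features these shares were 19.8% and 8.68%. Features well above background on all 8 arrays, the kind to which the 3 genes belong, were higher in 11.6% of cases and lower in 6.93%. The median log2 fold change of the 8 genes tested was 0.27, against 0.02 over all features. It was 0.09 over all 10 genes without the filter on dim probes. The balance of calls over all features depended on the scaling: 74.9% of them were higher here, 58.4% with quantile normalization, 59.1% with normexp background correction and quantile normalization together, 59.0% with cyclic loess and 32.3% with median centring.

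**Figure D1:**
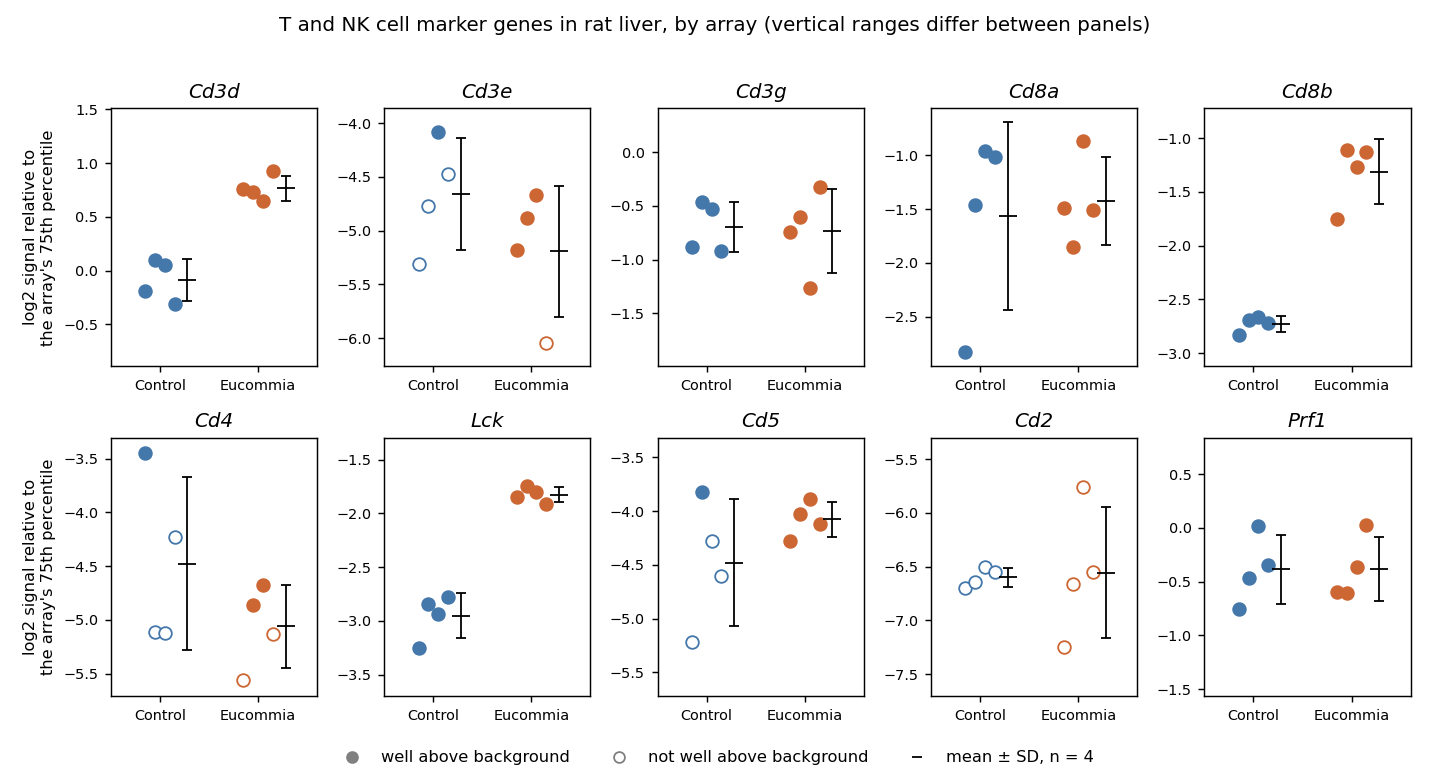
Log2 signal relative to the array's 75th percentile (vertical axis) of the 10 genes on each control and Eucommia array, with the mean and SD of 4 arrays beside the points; open points were not well above background. The groups do not overlap for Cd3d, Cd8b and Lck and overlap for the other 7 genes.

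Cd3d encodes the delta chain of CD3, and its probe was well above background on every array. Its log2 signal was -0.19, 0.10, 0.05 and -0.31 on control arrays 1 to 4 and 0.75, 0.73, 0.64 and 0.93 on Eucommia arrays 1 to 4. Every Eucommia array lay above every control array. The log2 fold change was 0.85 ± 0.12 (SE), 1.80-fold, with an adjusted p of 0.000739 by limma. At this brightness rises were uncommon: of 2331 features within 0.5 log2 units of the mean signal of Cd3d, 7.08% were higher.

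Cd3g encodes the gamma chain and did not pass the test. It stood at -0.88, -0.47, -0.53 and -0.92 on the control arrays and at -0.75, -0.61, -1.26 and -0.32 on the Eucommia arrays. The lowest and the highest of the 8 values both belonged to the Eucommia group, and the groups overlapped throughout. Its log2 fold change was -0.04 with a 95% confidence interval of -0.50 to 0.43 (adjusted p = 0.921 by limma), an interval that lies below the fold change of Cd3d.

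Cd3e, the epsilon chain, was close to background. Its signal was 7.02, 8.31, 13.9 and 11.7 raw units on the control arrays and 6.61, 7.71, 8.99 and 3.32 on the Eucommia arrays. It was well above background on 1 control array (replicate 3) and on 3 Eucommia arrays (all but replicate 4), although the control signals covered a higher range; the flag was reached at lower signals on the Eucommia arrays. The log2 fold change was -0.53, with a 95% confidence interval of -1.30 to 0.24 (adjusted p = 0.304 by limma). With cyclic loess normalization, tried after seeing the data, it was -1.14 and passed (adjusted p = 0.0338 by limma).

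Of the coreceptor genes, Cd8b, the beta chain of CD8, had the largest rise among the 8 genes tested. Its log2 signal was -2.83, -2.69, -2.66 and -2.72 on the control arrays and -1.75, -1.11, -1.27 and -1.13 on the Eucommia arrays. The control arrays lay within a narrow band well below all Eucommia arrays. The log2 fold change was 1.41 ± 0.15 (SE), 2.66-fold (adjusted p = 0.000130 by limma). Among 3187 features within 0.5 log2 units of its mean signal 23.5% were higher, so rises were common at that brightness.

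Cd8a encodes the alpha chain, which pairs with the beta chain or with itself. It stood at -2.83, -1.46, -0.96 and -1.01 on the control arrays and at -1.49, -1.85, -0.87 and -1.51 on the Eucommia arrays. Control replicate 1 was the lowest of all, and the other 7 values were mixed between the groups. The log2 fold change was 0.14, with a 95% confidence interval of -0.79 to 1.06 (adjusted p = 0.844 by limma), and it was -0.28 without control replicate 1. That interval holds both 0 and a rise as large as that of Cd3d. Rises as large as those of Lck (1.13) and Cd8b (1.41) lay outside it.

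Cd4, the coreceptor of helper T cells, was well above background on 3 arrays in all and had no test in the fit with the filter. Its signal was 25.5, 6.58, 6.75 and 13.9 raw units on the control arrays and 5.06, 7.79, 8.93 and 6.24 on the Eucommia arrays. Control replicate 1 was well above background, as were Eucommia replicates 2 and 3, while control replicate 4 was not at 13.9 raw units. Without the filter the log2 fold change was -0.58 ± 0.39 (SE), which did not pass (adjusted p = 0.299 by limma).

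Lck, the kinase that phosphorylates the CD3 chains, rose. Its log2 signal was -3.25, -2.84, -2.94 and -2.78 on the control arrays and -1.84, -1.75, -1.80 and -1.91 on the Eucommia arrays. The Eucommia arrays lay close together and above all control arrays. The log2 fold change was 1.13 ± 0.12 (SE), 2.18-fold (adjusted p = 0.000121 by limma). Of 3271 features within 0.5 log2 units of its mean signal 25.8% were higher.

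Cd5, an inhibitory surface receptor of T cells, was well above background on 1 control array (replicate 2) and on all 4 Eucommia arrays. Its signal was 7.49, 16.1, 12.1 and 10.7 raw units on the control arrays against 12.4, 14.0, 15.5 and 12.6 on the Eucommia arrays. The raw signals of the groups overlapped, and the number of arrays above background differed beside the lower limit of the flag on the Eucommia arrays; the part of that limit was not tested. The log2 fold change was 0.40, with a 95% confidence interval of -0.20 to 1.0 (adjusted p = 0.317 by limma).

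Cd2, an adhesion receptor of T and NK cells, was not well above background on any array. Its signal ran from 2.27 to 2.77 raw units on the control arrays and from 1.58 to 4.22 on the Eucommia arrays, near the lowest signals of those arrays. No direction or fold is given for it.

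Prf1 encodes perforin, which forms pores in the membranes of target cells. It stood at -0.75, -0.46, 0.02 and -0.34 on the control arrays and at -0.60, -0.60, -0.36 and 0.03 on the Eucommia arrays. The group means were equal at -0.38 ± 0.32 and -0.38 ± 0.30 (SD, n = 4). The 95% confidence interval of the log2 fold change ran from -0.44 to 0.44 (adjusted p = 1.0 by limma), so a rise as large as that of Cd3d, Lck or Cd8b lay outside it.

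**Figure D2:**
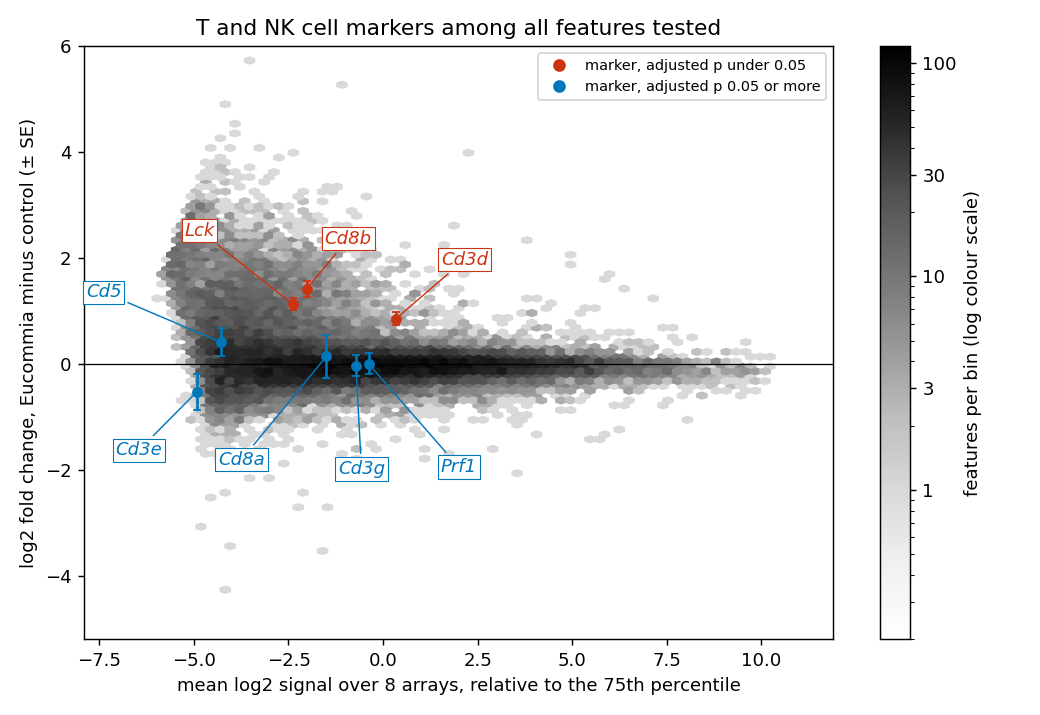
Log2 fold change (Eucommia minus control, with SE bars for the 8 genes tested) against mean log2 signal over 8 arrays; grey bins count all 25128 features on a log colour scale. Cd8b and Lck lie in a brightness range where many features rose, Cd3d in one where few did, and Cd3g, Prf1 and Cd8a lie near 0.

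Chains of the same receptor were set against each other within each array, which removes any scaling common to the array. Signals of different probes are not comparable as levels, so only the change of such a difference between the groups is read. These 4 pairs were chosen after the values were seen. Cd3d minus Cd3g was 0.70, 0.57, 0.58 and 0.61 on the control arrays and 1.5, 1.34, 1.91 and 1.25 on the Eucommia arrays. The control arrays lay close together and below every Eucommia array. The difference between the groups was 0.89 (exact permutation test, 2-sided, p = 0.0286, the smallest that 4 against 4 allows; 0.0571 adjusted over 4 pairs). Cd3d minus Cd3e differed by 1.38 without overlap (exact permutation p = 0.0286, adjusted 0.0571), but Cd3e was above background on 1 control and 3 Eucommia arrays, and the difference ran from 0.70 with normexp and quantile normalization to 2.01 with cyclic loess. Cd3g minus Cd3e differed by 0.50 with overlap (exact permutation p = 0.571).

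For the CD8 chains, Cd8b minus Cd8a was -1.16 ± 0.80 on the control arrays and 0.11 ± 0.54 on the Eucommia arrays (SD, n = 4). The groups overlapped through control replicate 1, at 0.00, which had the lowest Cd8a signal. The difference was 1.27 (exact permutation test, 2-sided, p = 0.0857, adjusted 0.114 over 4 pairs). None of the 4 pairs passed after adjustment, and no adjusted p under 0.05 could be reached with fewer than 3 pairs at the smallest p.

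**Figure D3:**
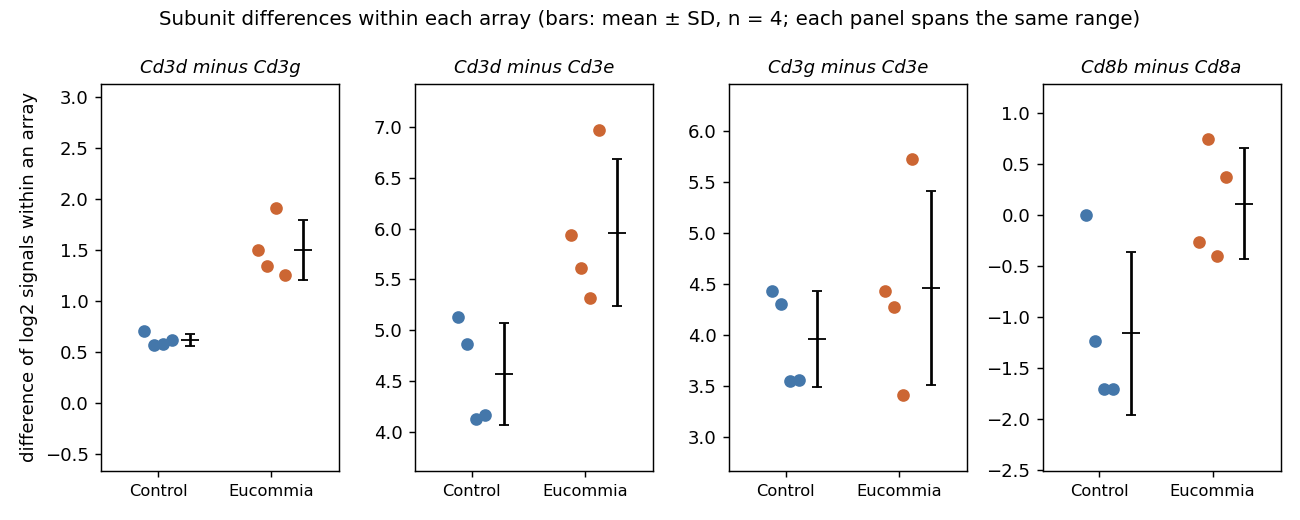
Difference of log2 signals between chains of one receptor within each array (vertical axis, 1 point per array, with the mean and SD of 4 arrays). Cd3d minus Cd3g lies between 0.57 and 0.70 on the control arrays and between 1.25 and 1.91 on the Eucommia arrays, and Cd8b minus Cd8a overlaps through 1 control array.

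Other genes of T cell receptor signalling and costimulation included 1 of 8 tested that rose and 0 that fell (2 and 1 at an unadjusted p under 0.05); the median of their log2 fold changes was 0.04. The gene that rose was Ctla4, an inhibitory receptor that competes with CD28. It went from -3.75, -3.12, -3.07 and -3.54 on the control arrays to -1.76, -1.77, -1.93 and -1.79 on the Eucommia arrays. The groups did not overlap, and the log2 fold change was 1.56 ± 0.16 (SE; adjusted p = 0.000111 by limma). It was 0.63 with normexp and quantile normalization and still passed. Cd6, a relative of Cd5, had 0.19 and the kinase Fyn, a relative of Lck, -0.03, and neither passed (adjusted p = 0.241 and 0.901 by limma). Cd28, Icos and Trat1 were above background on no array.

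Among transcription factors of T and NK cells 1 of 5 tested was higher and 0 lower (1 and 1 unadjusted). Runx3, which directs cytotoxic T cell development, rose by 0.86 ± 0.10 on the log2 scale (SE), with limma's adjusted p at 0.000197, from -0.83 ± 0.08 to 0.03 ± 0.13 (SD, n = 4). Zbtb16, known from innate-like T cells, had 0.06 and did not pass (adjusted p = 0.782 by limma). Gata3 and Lef1 were above background on no array. The list median was -0.12.

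Cytotoxic granule and NK receptor genes went both ways, with 2 of 17 tested higher and 3 lower at a median of 0.07. Ncr3, an activating NK receptor, passed the background limit on 0 control arrays and on all 4 Eucommia arrays. It was called higher there (adjusted p = 3.14e-05 by limma), with measured means of -6.58 on the control and -4.56 on the Eucommia arrays. No fold from that test is given for Ncr3, since its control signals were not well above background. It entered the test only through the Eucommia arrays, as did 2072 features above background on no control array, of which 74.2% were called higher. With normexp and quantile normalization its log2 fold change was 0.27. The log2 signal of Cst7, a protease inhibitor of cytotoxic cells, rose by 0.55 ± 0.13 (SE), with an adjusted p of 0.0155. The NK lectin receptors Klrc3 and Klrc2 had log2 fold changes of -0.66 ± 0.16 and -0.30 ± 0.08 (adjusted p = 0.0179 and 0.0322 by limma); the probes of this gene family may bind more than 1 member. Klrb1c, the third gene that fell, belongs to a related family of NK lectin receptors. Its log2 fold change was -0.66 ± 0.21 (SE, adjusted p = 0.0468 by limma), and it was named after its values were seen. It was dim, well above background on 3 control and 2 Eucommia arrays. The remaining 12, granzyme genes among them, did not pass. With each array left out in turn, Klrc2 kept its call in 1 of 8 fits, Klrc3 in 6 and Cst7 in all 8. Cst7 passed in 2 of 6 scalings and Klrc3 in 5.

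Among lymphocyte cytokines and chemokine receptors 1 of 12 tested was higher and 2 lower, with a median of -0.02. Ccr7, the receptor that guides T cells into lymph nodes, rose by 1.15 ± 0.25 on the log2 scale (SE), with limma's adjusted p at 0.00941. It was well above background on 1 control array and on all 4 Eucommia arrays, and with normexp and quantile normalization together its log2 fold change was 0.13 and did not pass (adjusted p = 0.103). Cxcr6 and Cxcr3, receptors of liver-resident and activated T cells, had log2 fold changes of -0.68 ± 0.18 and -0.38 ± 0.11 (adjusted p = 0.0246 and 0.0426 by limma). Cxcr6 kept its call in 6 of the 8 fits without 1 array and Cxcr3 in 2. With normexp and quantile normalization the log2 fold change of Cxcr3 was -0.14 (adjusted p = 0.125).

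Genes of leukocytes in general mostly had values below 0: 9 of 11 were negative, with 1 higher and 1 lower. Their median was -0.25, against 0.02 over all features. Ptprc, which encodes the pan-leukocyte antigen CD45, had a brightest probe that rose by 0.80 ± 0.14 on the log2 scale (SE), with limma's adjusted p at 0.00219; with normexp and quantile normalization it did not pass (0.0562). The other 2 probes of Ptprc had values of -0.36 and -1.48, the second of them above background on 1 array of each group, so its probes disagreed in sign. Vav1, a signalling factor of lymphocytes and myeloid cells, had -0.49 ± 0.15 (adjusted p = 0.0390) and kept its call without any 1 array in 2 of 8 fits.

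Markers of other cells that a liver sample can hold are given beside these values. Like the lists above, these lists were chosen with earlier results of these data known, so their counts are a description. By limma 0 of the 6 B and plasma cell markers tested passed, and 0 at an unadjusted p under 0.05 (median 0.07), and their summed level ran from 1.03 to 1.32 on control and from 1.11 to 1.21 on Eucommia arrays, in units of each array's 75th percentile. Pou2af1, a B cell coactivator, had 0.19 (adjusted p = 0.315 by limma) and the B cell lectin Cd22 -0.32 (0.213), and the complement receptor Cr2 was above background on no array. Another probe of Pou2af1 had 1.78, with 0 control and 4 Eucommia arrays well above background. Of the macrophage markers 17 of 19 had values below 0 (median -0.45, against 0.02 over all features). At an unadjusted p under 0.05, 5 were lower, of which Siglec1 alone passed after adjustment. Siglec1 had -1.08 ± 0.34 (SE, adjusted p = 0.0477 by limma, overlapping groups, 3 of the 8 fits without 1 array). Over all features 6.17% were lower after adjustment. The shares of all features below 0 or at an unadjusted p were not computed. Clec4f and C1qb, bright Kupffer cell genes, had -0.36 and -0.42 and did not pass (0.316 and 0.183). The summed macrophage level was 151 to 247 on control and 128 to 220 on Eucommia arrays. The 2 dendritic cell genes tested, Cd83 (-0.06) and Batf3 (0.06), did not pass (adjusted p = 0.912 and 0.767 by limma); their summed level was 0.65 to 1.31 and 0.70 to 1.4.

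Among neutrophil markers 2 of 5 tested were called higher and 0 lower (median 0.05), and both had entered the test only through the Eucommia arrays. Elane and Csf3r, a granule protease and a growth factor receptor, were below the background limit on every control array. They were called higher on the Eucommia arrays (adjusted p = 2.77e-05 and 4.89e-05 by limma). No fold from that test is given, since their control signals were not well above background. The share of 74.2% called higher among such features applies to Elane and Csf3r too. With normexp and quantile normalization their log2 fold changes were 0.39 and 0.21. The offset of 50 in that setting makes fold changes of dim probes smaller by construction. The summed neutrophil level was 1.04 to 1.25 on control and 1.20 to 1.67 on Eucommia arrays, and Cxcr2 and Ngp were above background on no array.

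Among lymphoid stroma and vessel genes 1 of 4 tested rose: Glycam1, by a log2 value of 5.27 ± 0.28 (SE), while the lymphoid chemokines Ccl19 (-0.14) and Ccl21 (0.01) did not pass (adjusted p = 0.651 and 0.97 by limma) and Madcam1 was above background on no array. Their summed level was 1.88 to 2.88 on control and 4.49 to 5.77 on Eucommia arrays. Glycam1 is part of that sum, with a mean log2 signal of -3.76 on control and 1.51 on Eucommia arrays. The sum is therefore not a rise shared by the list. Of the pancreatic acinar enzymes 3 of 7 tested rose and 0 fell (median 0.62): Ctrb1 by 1.79 ± 0.15, Cela2a by 1.11 ± 0.10 and Cel by 0.62 ± 0.13 (log2, SE; adjusted p = 3.82e-05, 5.53e-05 and 0.00671 by limma). With normexp and quantile normalization these were 1.35, 0.24 and 0.15, and Glycam1 was 3.23. The summed level of the acinar genes was 1.43 to 1.66 on control and 2.51 to 3.67 on Eucommia arrays, with Prss1 and Cela3b above background on no array. Ctrb1, the brightest of the 7 tested, is part of that sum, with a mean log2 signal of -0.59 on control and 1.20 on Eucommia arrays. Of the 7, 3 had log2 fold changes below 0. This sum, too, is not a rise shared by its list. Of the hepatocyte genes 9 of 10 had values below 0 (median -0.20, against 0.02 over all features). At an unadjusted p under 0.05, 4 were lower. After adjustment 1 was, the transferrin gene Tf at -0.55 ± 0.11 (adjusted p = 0.00709), beside Alb at -0.17 and Serpina1 at 0.11, which did not pass (0.243 and 0.398); their summed level was 6291 to 7192 on control and 5590 to 6542 on Eucommia arrays. The part of any of these cells or tissues in the rises of Cd3d, Cd8b and Lck was not tested.

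**Figure D4:**
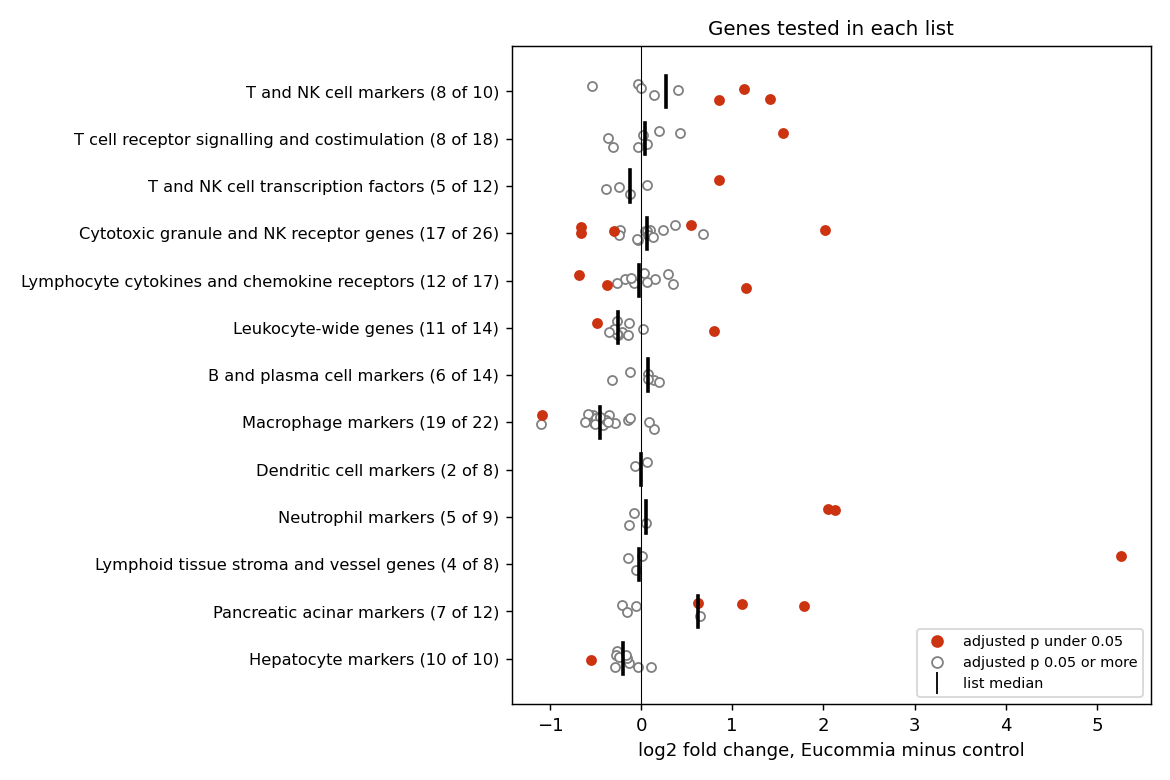
Log2 fold change (horizontal axis, Eucommia minus control) of every gene tested in each list, with the number tested of the number listed; filled points have an adjusted p under 0.05 and the black bar is the list median. Genes that passed lie on both sides of 0 among cytotoxic and chemokine receptor genes, while the 3 that passed among the T and NK cell markers lie above 0.

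After each group's mean was taken off, the 8 marker genes tested averaged lowest on control replicate 1, at -0.46 log2 units. Their average lay between -0.12 and 0.27 on the other 7 arrays. The genes did not share the low value equally. On control replicate 1 Cd8a stood at -2.83, against a control mean of -1.57. Cd5 and Cd3e stood there at -5.22 and -5.31 without being well above background. Cd3d and Cd8b, at -0.19 and -2.83, lay close to their control means of -0.09 and -2.73. The average profile was compared with 8463 named genes above background on all arrays. Closest were Rpn1 (Pearson r = 0.993), Samd14 (0.978), Pfkl (0.974), Olr193 (0.970) and Or2a57 (0.969), over 8 arrays. They are given as a description, found by a search through all 8463 genes. Samd14 and Or2a57 were also higher in the Eucommia group, by log2 values of 1.34 ± 0.16 and 1.70 ± 0.18 (SE; adjusted p = 0.000328 and 0.000137 by limma), while Rpn1 (-0.14), Pfkl (0.44) and Olr193 (0.06) did not pass.

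The rises of Lck, Cd8b and Cd3d passed in all 22 settings of the processing that were tried, the reported one included. Some settings could not change these fold changes. The series table holds the same intensities, and each gene had 1 probe, well above background on all arrays. The series table and the other filters and probe rules therefore gave the reported fold changes. The size of the rises did depend on the scaling. With normexp and quantile normalization the log2 fold change was 0.40 for Lck, 0.56 for Cd8b and 0.65 for Cd3d. The offset of 50 added in that setting makes log2 fold changes smaller by construction, more so for dim probes. Lck and Cd8b were dimmer than Cd3d. The lowest value of Cd3d was 0.59, with median centring, which moved the median of all features from 0.02 to -0.24. Cd3d minus Cd3g stayed between 0.75 and 0.97 over the 22 settings, both ends from fits without 1 Eucommia array. A scaling common to each array cannot move this difference. Median centring and the percentile of detected probes therefore left it at the reported 0.89. Cd8b minus Cd8a ran from 0.58 with normexp and quantile normalization to 1.66 without control replicate 1.

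**Figure D5:**
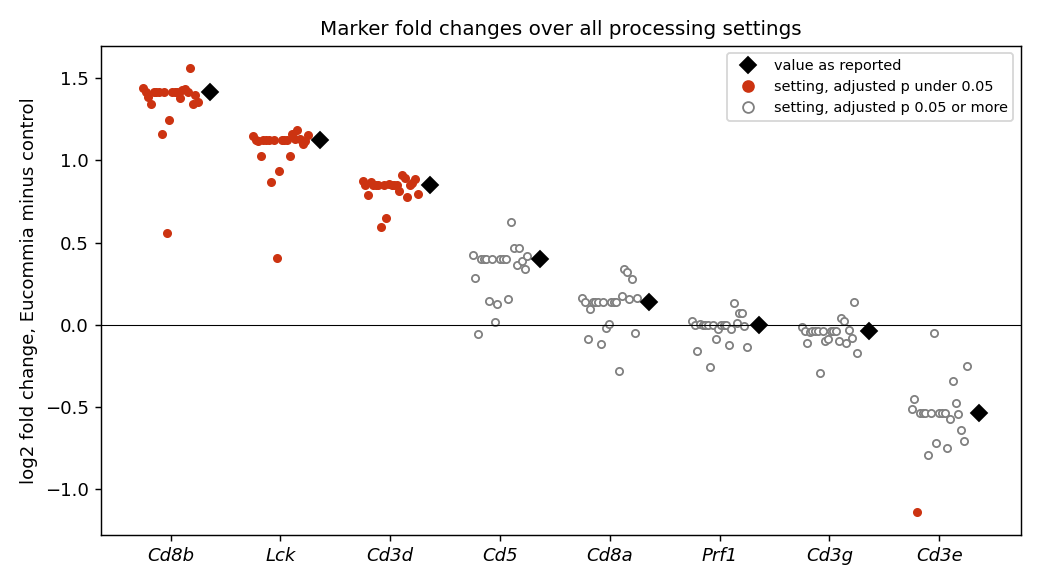
Log2 fold change (vertical axis) of the 8 genes tested under each processing setting, with the value as reported as a diamond. The points of Cd8b, Lck and Cd3d are all above 0 with an adjusted p under 0.05, those of Cd8a, Prf1, Cd3g and Cd5 lie on both sides of 0, and those of Cd3e are below 0 and pass in 1 setting.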

How the data were processed

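Each deposited scanner file holds the intensity values of 1 array, extracted with version 10.1.1.1 of Agilent's Feature Extraction software per the submitters' processing notes; the processed signal is background-subtracted and detrended within the array and not normalized between arrays. Flags for control, outlier and background-level spots, other values in the same deposited files, were used as they stand. The deposited series table held identical intensity values (100% of 43379 spots that are not controls). RNA (500 ng) was labelled with Cy3, per the labels' protocols.

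Signals were put on the log2 scale, less each array's 75th percentile. Outlier spots were left out (none was a spot of these genes), and spots of a probe averaged. Probes well above background on at least 4 of 8 arrays were kept (27724 of 41012). Accessions were matched without version to RefSeq (GRCr8), naming 16336 probes; a gene is its brightest kept probe. The test was limma's (version 3.58.1, R 4.3.3), 2-sided, with Benjamini-Hochberg adjustment over 25128 features; the test was checked on simulated data. A group never above background gives a bound: the mean of the bright group over that of the dim group, in which each array's value was raised to the lowest signal well above background where it lay below that.

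The genes and lists were chosen with earlier results of these data known. Named genes are all 10 markers and, per list, up to 4 that passed or else the 2 brightest. Leave-1-out fits kept the same features. Same-numbered arrays did not deviate together (r from -0.10 to -0.03), so the numbers pair no samples. Alternatives were other scalings (quantile, median, the percentile of detected probes, cyclic loess), normexp (offset 50, on median signals) followed by quantile normalization, other filters and probe rules, and each array left out. The normexp offset makes the fold changes of dim probes smaller by construction.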

Additional observations from a re-analysis of the deposited data

Results flagged for a closer look

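Among 84 groups of 4 arrays examined, for the 10 marker genes and the other named genes, 2 held an array far from the other 3 by Dixon's test at the 95% level (critical value 0.829); chance alone marks about 1 group in 20. For Klrc2 control replicate 3 stood at -2.66, against -2.86 to -2.83 on the other control arrays. For Alb control replicate 1 stood at 9.79, against 9.997 to 10.02. No group of the 10 marker genes was marked in this way, the low Cd8a signal of control replicate 1 included.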

How the results depend on the processing

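Lck, Cd8b and Cd3d kept their direction and passed in all 22 settings, some of which could not change their fold changes. The count of marker genes called stayed at 3 with each array left out in turn (3 to 3). With cyclic loess, chosen after seeing the data, that count was 4, with Cd3e lower. The genes that did not pass changed sign in places. Cd8a was -0.12 with median centring, -0.019 with normexp and quantile normalization and -0.083 with array weights, and ran from -0.28 to 0.34 with 1 array left out. Cd3g ran from -0.17 to 0.14 and Prf1 from -0.14 to 0.14 in those fits; Prf1 was 0.024 with the percentile taken over probes above background on all arrays and 0.0028 with cyclic loess, and Cd5 was -0.054 with cyclic loess. Over all features 6174 were called, against 11742 with median centring, 12769 with no filter on dim probes, 3701 with only features above background on all 8 arrays, and 4934 to 5738 with 1 array left out. In the other lists 20 genes were called (12 higher, 8 lower), against 46 (11 and 35) with median centring, 33 with no filter, 13 with features above background on all arrays, 16 (12 and 4) with the other percentile, and 14 to 21 with 1 array left out. With the replicate number as a block, which the data do not bear out as a pairing, 5137 features, 3 marker genes and 13 list genes (11 higher, 2 lower) were called. The cause of these changes was not tested, beyond the numbers of features and arrays that differ by construction. A block for the slide could not be fitted, since each slide holds 1 group. Signal over background limits Cd2, Cd3e, Cd4 and Cd5.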
